A study of Mus musculus with 8 samples.

Results

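Genes of laminin adhesion, 10 in all, were followed across 8 arrays of luminal cells from the mouse mammary gland. They are the 4 integrin chains Itga3, Itga6, Itgb1 and Itgb4, the 4 tetraspanins Cd151, Cd9, Cd81 and Cd82, and 2 laminin receptors outside the integrin family, Dag1 and Bcam. The genes were chosen by name for their place in this adhesion system, with earlier results of these data known. Each has 1 probe set on the array, and they are 10 of the 19505 genes measured. The cells were sorted by flow cytometry from enzymatically digested, fresh tissue of mice on day 15 of pregnancy. There were 4 arrays of control luminal cells and 4 of a3a6KO luminal cells, a name that refers to the alpha 3 and alpha 6 chains encoded by Itga3 and Itga6. The labels describe the replicates as biological. The titles of the a3a6KO samples also carry the word Ctrl, and the groups follow the cell subtype label. The sources used here do not name the mouse strain, the exact age, the Cre line, the deleted part of each gene, what the control mice carried or the antibodies of the sort. All values are log2 expression values, and all differences are a3a6KO minus control.

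Integrins are pairs of an alpha and a beta chain that span the membrane and bind matrix outside and the cytoskeleton inside. Alpha 3 pairs with beta 1, and alpha 6 pairs with beta 1 or beta 4, and these receptors bind the laminins of the basement membrane on which mammary epithelium rests. Tetraspanins are small proteins with 4 membrane passes that gather integrins into membrane patches, and Cd151 binds the laminin-binding integrins directly. Dystroglycan, encoded by Dag1, and the immunoglobulin-family protein Bcam bind laminin without an integrin. In the mammary gland the alpha 6 chain is found in basal and luminal cells, with more on basal cells, and is widely used as a sort marker.

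Intron control sets of the same array served as the background, since they target sequence that is spliced out of mature RNA. Their median lay between 2.85 and 3.07 on single arrays and their 95th percentile between 6.38 and 6.90. Of the 19505 genes, 2244 to 3229 exceeded that percentile on a given array, and a gene below it can still lie above most intron sets. No gene passed an adjusted p of 0.05 between the groups (limma, smallest adjusted p = 0.631), which is 0% of all genes, and 1000 genes (5.13%) had an unadjusted p under 0.05. Checked against the labelled cell type, all 11 luminal markers, among them the keratins Krt8 and Krt18 and the adhesion gene Epcam, exceeded the intron percentile on all 8 arrays. So did 4 markers of other cells, the basal genes Krt14 (6.97 to 10.91) and Acta2 (6.98 to 10.37) and the lipid genes Fabp4 (8.94 to 11.42) and Pnpla2 (8.28 to 9.54) of the adipocyte list. Of the 11 luminal markers, 8 had higher and 3 lower means in a3a6KO. The groups did not overlap in 1 of them, Muc1, against 2.94% of all genes in either direction. Muc1 was at 9.66, 9.36, 9.28 and 9.18 in control and at 9.16, 8.13, 8.27 and 8.94 in a3a6KO. Its difference was -0.745 (SE 0.256, limma adjusted p = 0.944). Control 4 and a3a6KO 3 stood apart in endothelial markers. The endothelial marker score, which averages over 10 genes each deviation in log2 from that gene's mean level, was 1.42 and 1.06 in these arrays and between -0.80 and -0.07 in the others. Fewer cells of a type and less RNA per cell cannot be told apart in such bulk samples.

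Itga6, the alpha 6 chain gene, was high on every control array and uneven among the a3a6KO arrays. In replicates 1 to 4 the controls read 8.83, 8.73, 9.14 and 8.80, whereas the a3a6KO arrays read 5.95, 3.65, 8.21 and 7.85. All 4 a3a6KO values lay below all 4 control values, a separation shown by 1.56% of all genes toward lower and 1.38% toward higher a3a6KO values. Control averaged 8.88 ± 0.18 and a3a6KO 6.42 ± 2.09 (SD, n = 4), which differ by -2.46 (SE 0.855, 95% interval -4.38 to -0.53). In limma the adjusted p over all genes was 0.944 (unadjusted 0.0177), and the exact permutation test gave p = 0.0286, two-sided, the smallest that 4 against 4 samples allow. The difference was -1.54 without a3a6KO 2, the array with the lowest Itga6 value.

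The a3a6KO arrays fell into a pair with Itga6 under the 95th percentile of the intron sets and a pair with Itga6 above it. The value in a3a6KO 2 exceeded 63.9% of the intron sets of that array and the value in a3a6KO 1 exceeded 91.3%, so both lay under the 95th percentile. The values in a3a6KO 3 and a3a6KO 4 each exceeded 98.4% of the intron sets, close to the 98.8% to 99.4% of the control arrays. Measured against the control mean, Itga6 was 1.59-fold lower in a3a6KO 3 and 2.03-fold lower in a3a6KO 4. In a3a6KO 1 and 2 only bounds can be given, taken from the 95th percentile of the intron sets of each array, and these were at least 4.33-fold and at least 4.64-fold lower. The position of the probes with respect to the deletion is not known here, so a remaining signal does not show an intact gene.

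The spread of Itga6 among the a3a6KO arrays was wide, with the 2 lowest values under the intron percentile. Of the 1820 genes above the intron percentile on all 4 control arrays, Itga6 had the largest SD in a3a6KO, 2.09 against a median of 0.30, an SD that rests on those 2 values. Its control SD of 0.18 was below the median control SD of 0.31 over all genes. Its difference was the second most negative of the 1820 (rank 2), while by p-value it ranked 46th. Choosing genes for high control values favours negative differences, and the low values are not above background, so these ranks are a description.

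Itga3, the alpha 3 chain gene, was also lower in a3a6KO on average, close to the background. The controls read 6.72, 6.30, 5.37 and 7.27, whereas the a3a6KO arrays read 5.11, 4.34, 5.55 and 5.60. Control 3 lay below a3a6KO 3 and 4, so the groups overlapped. The difference was -1.26 (SE 0.42, 95% interval -2.21 to -0.32), with an exact permutation p of 0.0857 and a limma adjusted p of 0.944. Itga3 exceeded the 95th percentile of the intron sets on 1 array, control 4, so no fold is given. Relative to the intron sets, it exceeded 89.9% to 97.7% of them on control arrays and 75.0% to 90.4% on a3a6KO arrays. As for Itga6, a3a6KO 2 held the lowest value, and a3a6KO 3 and 4 held the highest values of that group.

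**Figure D1:**
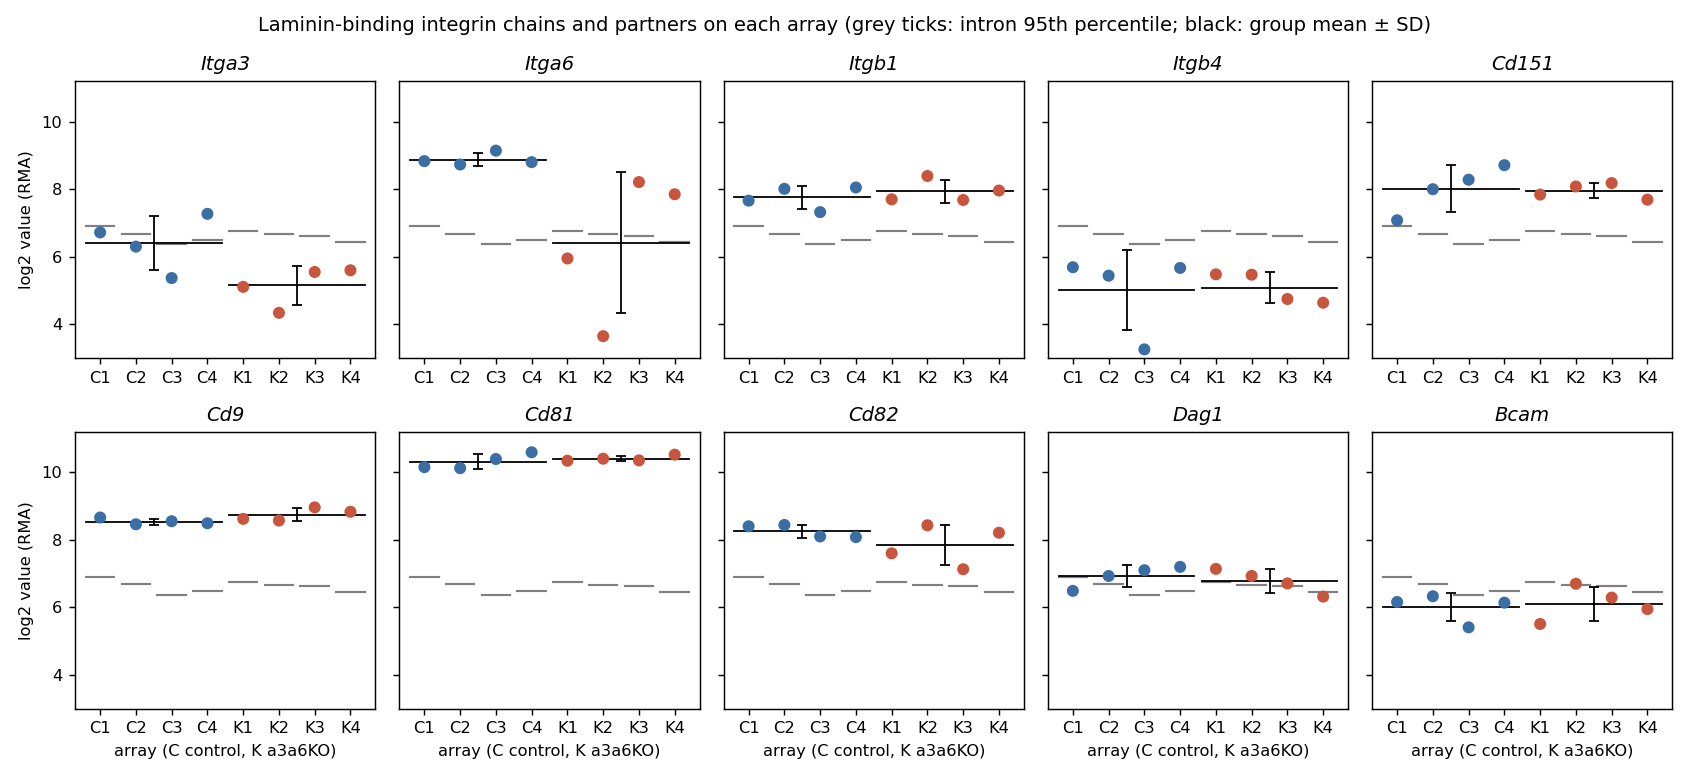
The log2 value of each of the 10 genes is plotted for the 4 control arrays (C1 to C4, blue) and the 4 a3a6KO arrays (K1 to K4, red), with black lines for group means, bars for the SD and grey ticks for the intron 95th percentile of each array. Itga6 is the gene whose groups are separate, from 8.73 up in control and from 8.21 down in a3a6KO, and the groups overlap in the other 9 genes.

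The uneven values of the targeted chains were set beside 12 markers of the outer, basal layer of the epithelium, whose cells also carry the alpha 6 chain. Of these markers, 11 had lower means in a3a6KO, 0 passed the threshold over all genes, and the median difference was -0.59. An unadjusted limma p under 0.05 was found for 4 of the 12, Krt14, Krt5, Myl9 and Trp63, all lower, against 5.13% of all genes. For control 1 to 4 the basal score read -0.35, 0.83, -0.33 and 1.43, and for a3a6KO 1 to 4 it read -0.86, -1.0, 0.95 and -0.66 (exact permutation p = 0.20). Trp63, the transcription factor that defines basal cells, averaged 6.54 in control and 4.11 in a3a6KO and was lower on every a3a6KO array than on every control, but it exceeded the intron percentile on 1 array, control 2 (8.37). The basal keratins Krt14 and Krt5 differed by -1.60 (SE 0.707) and -2.53 (SE 0.987), with overlapping groups and limma adjusted p-values of 0.944. These keratins and Trp63 had the largest falls of the 12 markers. Differences of the other markers ran from -1.06 (Myl9) to 0.935 (Vim), with Krt17 at -0.115 and Acta2 at -0.56. Per array, 4 to 9 of the 12 markers exceeded the intron percentile in control and 2 to 8 in a3a6KO. The array a3a6KO 3, with the highest Itga6 of its group, had a high basal score. The array a3a6KO 4 had a low basal score and an Itga6 value of 7.85. Control 1 and 3, with scores below 0, had Itga6 at 8.83 and 9.14. The basal keratins ordered the arrays in part otherwise than the score. On a3a6KO 1 to 4, Krt14 read 6.97, 7.11, 8.87 and 8.11, and Krt5 read 4.41, 4.12, 5.47 and 7.03. Krt14 read 7.62 in control 1 and 10.2 in control 3, and Krt5 read 5.38 and 9.54. Over the 8 arrays, which share the group difference, Pearson's r with Itga6 was 0.67 for Krt14, 0.69 for Krt5, 0.70 for Trp63 and 0.31 for Acta2. The part of basal cells in the Itga6 and Itga3 values was not tested. The fits that follow change the model or the arrays and do not measure that part. With the basal score as a covariate in limma, the difference was -1.86 for Itga6 (adjusted p = 0.880) and -0.89 for Itga3 (adjusted p = 0.867). Without control 4 and a3a6KO 3, a choice made after seeing the data, it was -3.08 for Itga6 and -1.11 for Itga3 (limma adjusted p = 0.908 for each).

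**Figure D2:**
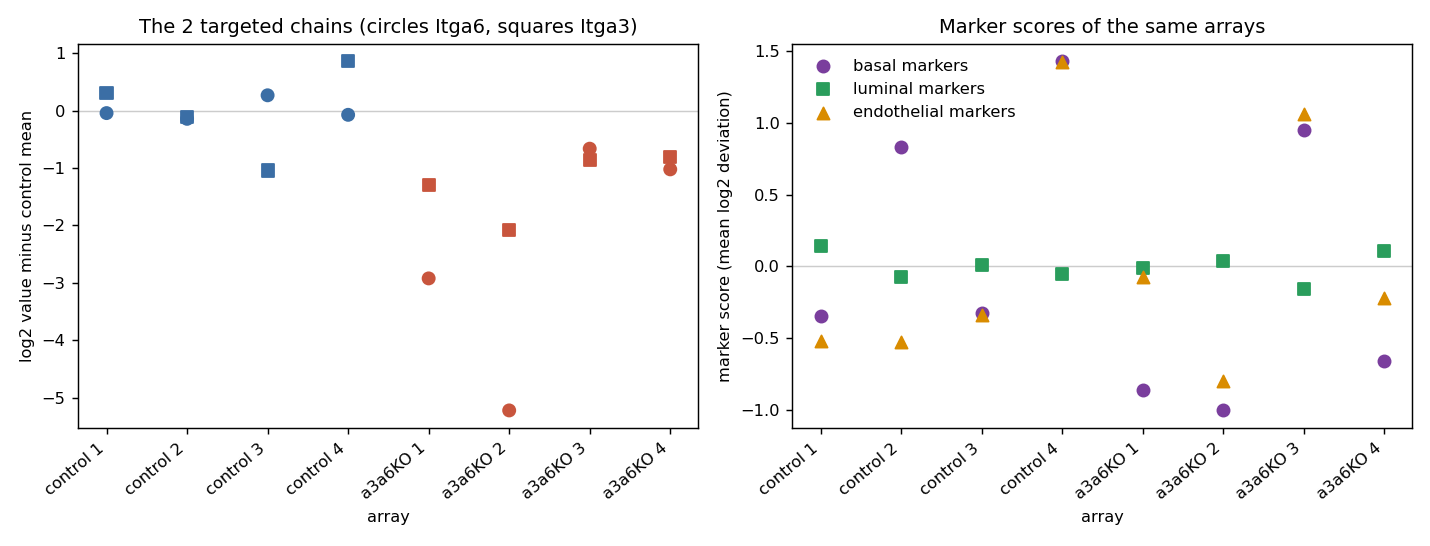
The left panel plots Itga6 (circles) and Itga3 (squares) on each array as the log2 value minus the control mean, blue for control and red for a3a6KO. The right panel plots the basal, luminal and endothelial marker scores of the same arrays. Control 4 and a3a6KO 3 stand high in basal and endothelial markers, and control 2 stands high in basal markers (0.83). The luminal score stays between -0.16 and 0.14.

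The beta chains that pair with alpha 3 and alpha 6 showed no difference past the threshold. Itgb1, the shared partner of both alpha chains, read 7.66, 8.01, 7.32 and 8.05 on control arrays, then 7.70, 8.39, 7.68 and 7.96 on a3a6KO arrays. Its highest value of all stood in a3a6KO 2, the array with the lowest Itga6 and the lowest Itga3. The difference of Itgb1 was 0.17 (SE 0.233, 95% interval -0.35 to 0.70), which leaves room for a change of up to 1.28-fold lower or 1.62-fold higher (exact permutation p = 0.514). It exceeded 97.5% to 98.6% of the intron sets on every array. Itgb4, which pairs with alpha 6 in hemidesmosomes, was at 5.69, 5.44, 3.26 and 5.67 in control and at 5.48, 5.47, 4.75 and 4.64 in a3a6KO. Control 3 was far below the rest, and Itgb4 exceeded the intron percentile on 0 arrays. Its difference of 0.07 (SE 0.524, 95% interval -1.11 to 1.25, exact permutation p = 0.943) became -0.52 without control 3, so these arrays do not show in which direction, if any, Itgb4 moved.

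Cd151, the tetraspanin that binds alpha 3 and alpha 6 integrins directly, had nearly the same mean in both groups, with a wide interval. Its values were 7.08, 8.0, 8.28 and 8.71 in control and 7.84, 8.08, 8.18 and 7.69 in a3a6KO. The a3a6KO values all fell within the control range. The difference was -0.07 (SE 0.321, 95% interval -0.79 to 0.65, exact permutation p = 0.857), so a fall of up to 1.73-fold or a rise of up to 1.57-fold lies within the interval. Its sign turned without control 3, control 4 or a3a6KO 4 (0.02, 0.16 and 0.02).

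Cd9 and Cd81, tetraspanins that link to many membrane proteins including integrins, were the most evenly measured of the 10 genes. Cd9 was at 8.66, 8.46, 8.55 and 8.49 in control and at 8.62, 8.57, 8.96 and 8.83 in a3a6KO, with a3a6KO 3 and 4 above every control. Its difference was 0.20 (SE 0.157, 95% interval -0.15 to 0.56, exact permutation p = 0.114), the smallest exact p among the partners. Cd81, at 10.15, 10.12, 10.39 and 10.59 in control and 10.34, 10.40, 10.35 and 10.52 in a3a6KO, varied least in a3a6KO. Its difference was 0.09 (SE 0.164, 95% interval -0.28 to 0.46, exact permutation p = 0.514). The intervals of Cd9 and Cd81 exclude a fall greater than 1.11-fold and 1.21-fold, and Cd81 exceeded at least 99.3% of the intron sets on every array.

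Cd82, a tetraspanin known for restraining cell migration, had the largest difference among the partners in size, and it was no larger than the spread between replicates allowed. It was at 8.40, 8.44, 8.10 and 8.08 in control and at 7.60, 8.43, 7.13 and 8.21 in a3a6KO. The lowest values stood in a3a6KO 3 and 1, while a3a6KO 2 and 4 lay within the control range. The difference was -0.41 (SE 0.283, 95% interval -1.05 to 0.22, exact permutation p = 0.314) and -0.17 without a3a6KO 3. The order of the a3a6KO arrays in Cd82 was not that of Itga6, whose lowest array, a3a6KO 2, had the highest Cd82 value of that group.

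The receptors that bind laminin without integrins, Dag1 and Bcam, lay near the background and did not differ past the threshold. Dag1 was at 6.49, 6.93, 7.10 and 7.20 in control and at 7.14, 6.93, 6.71 and 6.32 in a3a6KO, and exceeded the intron percentile on 6 arrays, 3 of each group. Its difference was -0.15 (SE 0.232, 95% interval -0.68 to 0.37, exact permutation p = 0.543), with values that overlapped almost fully. Bcam was at 6.16, 6.33, 5.41 and 6.14 in control and at 5.51, 6.70, 6.29 and 5.95 in a3a6KO. It exceeded the percentile on 1 array, a3a6KO 2, and differed by 0.10 (SE 0.294, 95% interval -0.56 to 0.76, exact permutation p = 0.80). A rise of these receptors by more than 1.29-fold (Dag1) or 1.70-fold (Bcam) lies outside the intervals, although a value close to background understates a change.

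**Figure D3:**
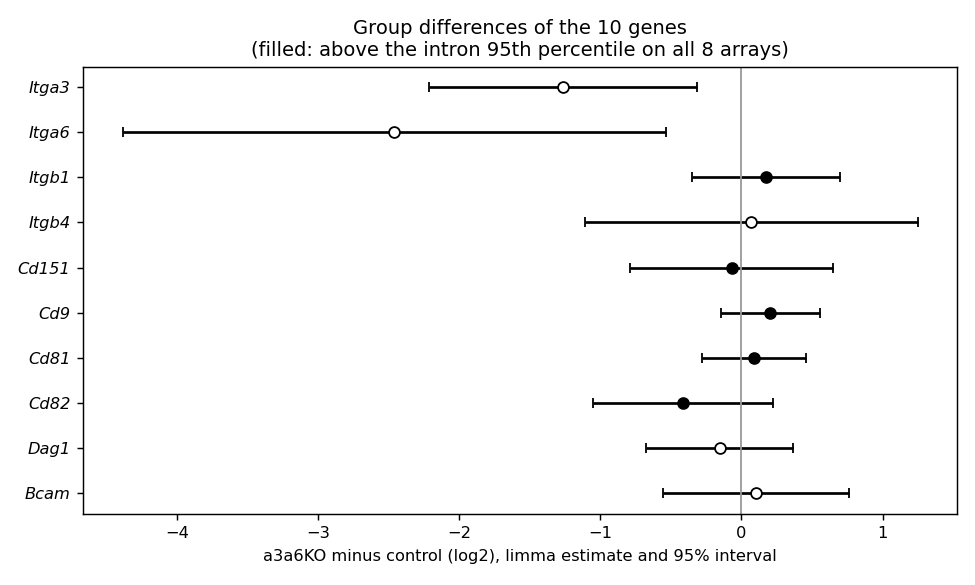
The limma estimate of the a3a6KO minus control difference (log2) is plotted with its 95% interval for each of the 10 genes, filled where the gene exceeded the intron 95th percentile on all 8 arrays. The intervals of Itga3 and Itga6 lie below 0 and those of the 8 partners hold 0, with partner estimates between -0.41 and 0.20.

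Among the 8 genes that were not targeted, 5 had higher and 3 had lower means in a3a6KO, with a median difference of 0.08 beside -0.0025 over all genes. In 0 of the 8 were the groups separate, against 2.94% of all genes in either direction, and 0 passed in limma (smallest adjusted p = 0.948). Their exact permutation p-values ran from 0.114 to 0.943. At an unadjusted p under 0.05 the limma fit held 2 of the 10 genes, Itga3 and Itga6, both lower, where 5.13% of all genes had such a p (2.73% lower and 2.40% higher).

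Whether a partner followed a deleted chain was tested directly, as the partner's log2 value minus that of the chain on the same array. Relative to Itga6, all 8 partners had higher means in a3a6KO, by 2.05 for Cd82 to 2.67 for Cd9. These sizes use the Itga6 values of a3a6KO 1 and 2 as measured, although both lie under the intron percentile. Without a3a6KO 2 they ran from 0.93 (Cd82) to 1.80 (Cd9), and 7 of the 8, all but Cd9, shrank by more than 1.5 times. The groups were separate for 5 of them, Itgb1 (2.63), Cd9 (2.67), Cd81 (2.55), Dag1 (2.31) and Bcam (2.56), each with an exact permutation p of 0.0286. Cd151 (2.39, p = 0.0571), Cd82 (2.05, p = 0.171) and Itgb4 (2.53, p = 0.257) overlapped in the same exact permutation test. These counts carry no mark particular to the partners, since 64.9% of all other genes were separate from Itga6 in the same way. The 16 pairs tested share the same 2 chains and the same arrays, and the p-values were not adjusted, because 4 against 4 samples cannot go below 0.0286.

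Relative to Itga3, the measured partner means were higher in a3a6KO by 0.85 (Cd82) to 1.47 (Cd9), and by 0.39 (Cd82) to 1.26 (Cd9) without a3a6KO 2. Itga3 exceeded the intron percentile on 1 control array and 0 a3a6KO arrays, so for all 8 partners the size of this contrast is uncertain and its tests rest on values near background. The groups were separate for 3 of the 8, Itgb1 (1.44, SE 0.519), Cd9 (1.47, SE 0.461) and Bcam (1.37, SE 0.55), with an exact permutation p of 0.0286 for each, where 14.6% of all other genes were separate. Itgb4, Cd81, Cd151, Dag1 and Cd82 overlapped, with exact permutation p-values from 0.0571 to 0.286. Bcam, itself above the intron percentile on 1 array, went from 1.37 to 0.90 without a3a6KO 2. Among the 1609 genes above that percentile on all arrays, 17.9% were separate from Itga3 and 70.9% from Itga6.

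**Figure D4:**
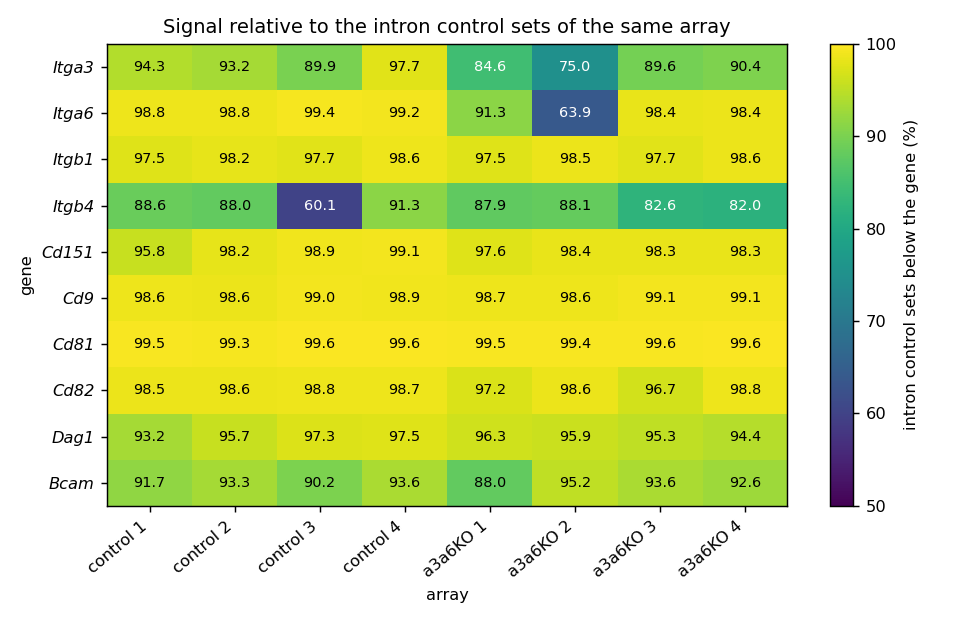
Each cell gives the percent of the 5222 intron control sets that lie below the gene on the same array, for the 10 genes (rows) and the 8 arrays (columns). Itga6 drops to 63.9% in a3a6KO 2 and 91.3% in a3a6KO 1 and stays at 98.4% in a3a6KO 3 and 4, whereas Itgb4 is dim on all arrays and lowest, at 60.1%, in control 3.

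The other laminin receptors were examined for a change beside the targeted chains. Of 6 measured, 4 had higher and 2 lower means, 0 passed over all genes, and the median difference was 0.14 beside -0.0025 over all genes. Rpsa, the ribosomal protein also known as a laminin receptor, averaged 12.04 ± 0.099 in control against 12.12 ± 0.039 in a3a6KO (SD, n = 4). The syndecans, heparan sulfate proteoglycans that bind laminin through their sugar chains, did not pass, and their groups overlapped. Sdc4 differed by -0.31 (SE 0.243), Sdc2 by 0.20 (SE 0.203) and Sdc1 by 0.29 (SE 0.747), the last with a value of 8.93 in a3a6KO 4 against 5.59 to 6.14 in the other a3a6KO arrays. Sdc1 exceeded the intron percentile on 2 control arrays and 1 a3a6KO array. Itga2 and Itga7, which pair with beta 1, exceeded the intron percentile on 0 arrays.

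Of the other integrin chains, 17 of 20 measured exceeded the intron percentile on no array, and 12 had higher and 8 lower means (median difference 0.01, 0 past the threshold). Itgav and Itgb6, which form a receptor for fibronectin and latent TGF-beta, were above it on all arrays. Itgav differed by -0.02 (SE 0.180) and Itgb6 by 0.0050 (SE 0.287). Itga8, an alpha chain that pairs with beta 1, averaged 7.33 ± 0.50 in control against 6.84 ± 0.64 in a3a6KO and differed by -0.49 (SE 0.354). It exceeded the intron percentile on 3 control arrays and 2 a3a6KO arrays.

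Other tetraspanins had higher means in 8 and lower means in 16 of 24 measured (median difference -0.12, 0 past the threshold), and 16 of them exceeded the intron percentile on no array. Cd63, a tetraspanin of late endosomes, differed by -0.14 (SE 0.199) and Tspan14, which guides the protease Adam10, by 0.01 (SE 0.230). Tspan8 averaged 6.81 ± 0.32 in control against 5.74 ± 1.10 in a3a6KO and differed by -1.07 (SE 0.480), with an unadjusted limma p of 0.0512 and an adjusted p of 0.944. It exceeded the intron percentile on 3 control arrays and 1 a3a6KO array. Among 10 membrane proteins known to bind tetraspanins, 7 had higher and 3 lower means (median difference 0.12, 0 past the threshold). Epcam differed by 0.11 (SE 0.143), Cldn7 by 0.13 (SE 0.145) and Adam10 by 0.39 (SE 0.508). Icam1, an adhesion receptor for leukocytes, was at 7.22, 7.34, 6.71 and 7.63 in control and 6.84, 5.98, 6.26 and 5.16 in a3a6KO. Its difference was -1.16 (SE 0.347), with overlapping groups, an unadjusted limma p of 0.0081 and an adjusted p of 0.944. Icam1 exceeded the intron percentile on 4 control arrays and 1 a3a6KO array.

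Genes of the ligand and of the complexes inside the cell were measured for the same comparison. Of 10 laminin chains, 5 had higher and 5 lower means (median difference -0.04, 0 past the threshold), and 7 exceeded the intron percentile on no array. Lamc1, the gamma 1 chain of most laminins, was measured above it on 7 arrays and differed by 0.09 (SE 0.494). Its highest values were 8.07 in control 4 and 8.89 in a3a6KO 3, the arrays with high basal and endothelial scores, and the part of those cells in this gene was not tested. Of 11 other basement membrane genes, 6 were higher and 5 lower (median 0.005, 0 past the threshold), with 10 of them above the percentile on no array. The hemidesmosome genes Dst and Col17a1 exceeded it on 0 arrays.

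Cytoplasmic adaptors that tie integrin tails to actin had higher means in 16 and lower means in 6 of 22 measured, with a median difference of 0.13 and 0 past the threshold. Talin 1, encoded by Tln1, which switches integrins to their active state, differed by 0.27 (SE 0.345). The kindlin Fermt2 differed by -0.0050 (SE 0.236), Actn4 by 0.13 (SE 0.329) and the docking protein gene Bcar1 by 0.33 (SE 0.303). Actn1 and Fermt1 differed by 0.56 (SE 0.380) and 0.48 (SE 0.295), each above the intron percentile on 1 control array and 3 a3a6KO arrays. In the dystrophin-glycoprotein complex, which anchors dystroglycan, 8 of 12 genes had higher and 4 lower means (median difference 0.11, 0 past the threshold). Utrn, the epithelial relative of dystrophin, differed by 0.41 (SE 0.332) and Dtnb by -0.09 (SE 0.438). Utrn exceeded the intron percentile on 2 control arrays and 4 a3a6KO arrays. Of 8 measured genes that build the laminin-binding sugar of dystroglycan, 3 were higher and 5 lower (median difference -0.035, 0 past the threshold), with Large2 at -1.23 (SE 0.560), above the percentile on 1 array.

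**Figure D5:**
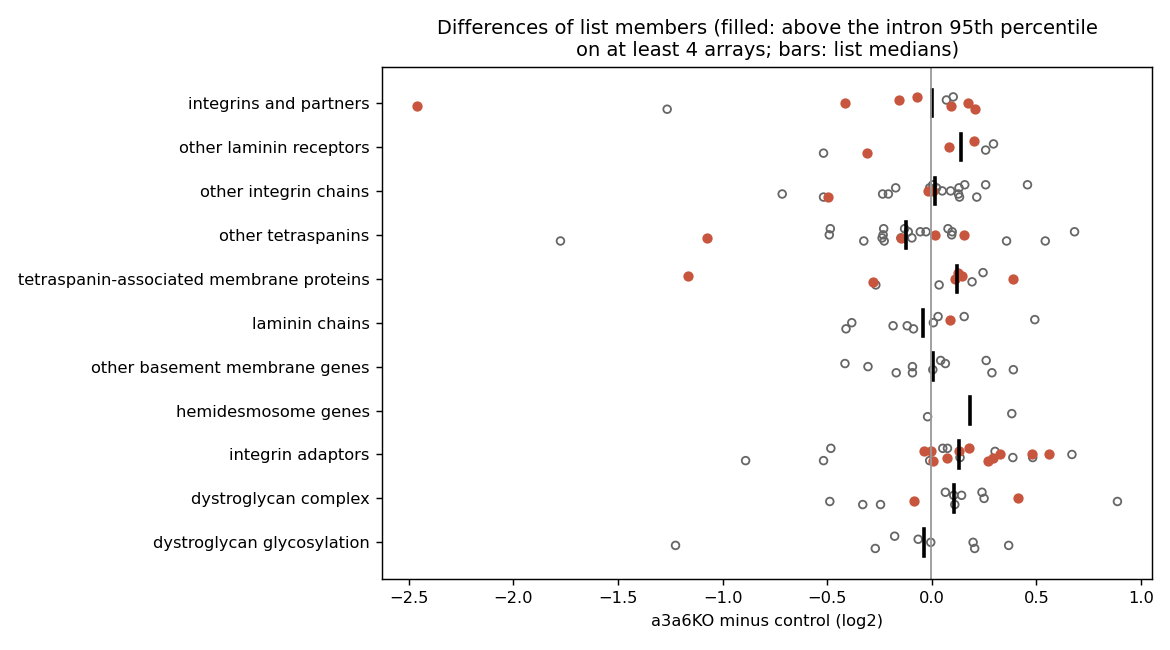
The a3a6KO minus control difference (log2) of each measured gene is plotted by gene list, filled where the gene exceeded the intron 95th percentile on at least 4 arrays, with black bars for list medians and a grey line for the median of all genes. Itga6 at -2.46 lies farthest to the left of all genes shown, and the list medians lie between -0.12 and 0.18.

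The genes whose pattern over the 8 arrays was most like that of a targeted chain were taken from the 1820 genes above the intron percentile on all control arrays. Likeness was Pearson's r over the 8 arrays, a description of points that share the group difference and the array. For Itga6 these were Mien1 (r = 0.963), B4galt1 (0.949), Rps14 (0.930), Rab7 (0.917) and Rpl9 (0.904). B4galt1, the galactosyltransferase that makes lactose together with alpha-lactalbumin, was at 8.14, 8.38, 8.49 and 8.38 in control and 7.26, 6.81, 7.73 and 8.15 in a3a6KO. As in Itga6, its lowest a3a6KO values stood in replicates 2 and 1, an order favoured by choosing genes for likeness to Itga6. Negative differences are likewise favoured here, by that choice and by the search among genes with high control values. Its difference of -0.86 (SE 0.275) and that of Mien1 (-0.50, SE 0.206) had a limma adjusted p of 0.944. The differences of Rps14, Rab7 and Rpl9 were smaller in size, from -0.19 to -0.13. For Itga3 the genes were Prrc2c (r = 0.991), Slc26a9 (0.936), Birc3 (0.922), Plpbp (0.900) and Fbxl20 (0.899), with differences from -1.37 (Slc26a9) to -0.14 (Prrc2c) and 0 past the threshold. The sets of 5 genes have no gene in common. Of the partners, Itgb1, Cd151, Cd9, Cd81 and Cd82 were among the genes searched and are in neither set, while Itgb4, Dag1 and Bcam were not searched.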

How the data were processed

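RNA of sorted luminal cells, 500 pg per sample, was amplified, labelled with biotin and hybridised to Affymetrix arrays, per the labels' protocols. The deposited values are log2 values, 1 per probe set and array, made with Affymetrix Expression Console and RMA per the submitters' processing notes, with no versions or genome build given in the sources used here. RMA gives all arrays about 1 distribution, which hides any change common to most of the genes. Values were used as deposited, from 0.96 to 13.28. Of 28846 probe sets, 19572 had 1 gene symbol in GEO's platform annotation, 0 had several and 9274 had none. The 28846 sets include 5222 intron and 1324 exon control sets. The set of highest mean was kept per gene. The number of arrays limits the precision, and the median SE was 0.234. Groups were compared with limma 3.58.1 (R 4.3.3; lmFit and eBayes, two-sided, Benjamini-Hochberg over 19505 genes, threshold 0.05) and, for single values, by exact permutation over 70 assignments (scipy 1.17.1). The limma script was tested on simulated data. Members and lists were chosen with earlier results of these data known. The genes named are the 10 members, in each list the 4 genes of highest mean and the 2 of largest difference among those above the intron percentile on at least 4 arrays, the 5 genes most like each targeted chain, and list markers; not every one is printed. Itga2 and Itga7 were chosen after their values were seen. The list genes without a platform symbol were not analysed here.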

Additional observations from a re-analysis of the deposited data

Results flagged for a closer look

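In groups of 4, a value was singled out when its gap to the nearest other value exceeded Dixon's 95% criterion, which chance meets in about 1 of 20 groups. This held in 9 of the 116 groups examined. Itgb4 in control 3 was at 3.26 against 5.44 to 5.69 in the other controls. Agrn, a basement membrane proteoglycan gene, was also low in control 3, at 4.67 against 6.67 to 6.85. Sdc1 was at 8.93 and Lamb2 at 6.15 in a3a6KO 4, against 5.59 to 6.14 and 4.98 to 5.18 in the other a3a6KO arrays. Lamb2 was at 6.44 in control 4 against 5.16 to 5.27. The endothelial marker score was 1.42 in control 4 against -0.53 to -0.34. In a3a6KO 3, Hspg2 was at 6.32 against 4.52 to 4.60, Sdc2 at 7.52 against 7.22 to 7.26, and the leukocyte marker score at 0.0842 against -0.16 to -0.14.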

How the results depend on the processing

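The count of genes past the threshold was 0 under all 16 alternatives to the limma fit (smallest adjusted p from 0.0582 to 0.964), and Itga3 and Itga6 stayed lower in a3a6KO in every one in which they were tested, with 0 calls. Leaving out 1 array gave -1.61 to -0.98 for Itga3 and -3.06 to -1.54 for Itga6. Directions turned for partners near 0 when 1 array was left out: Itgb4 ranged from -0.52 to 0.29, Cd151 from -0.38 to 0.16 and Bcam from -0.10 to 0.30. Cd151 also turned to 0.19 with the basal score as a covariate and to 0.083 without control 4 and a3a6KO 3 (chosen after seeing the data). Centring on the intron sets moved the median of all genes to -0.05. With replicate numbers as a block, 0 genes passed, Itga6 stayed at -2.46 and Itga3 at -1.26. Same-numbered samples did not deviate together (correlations -0.06 to 0.04), so the numbers are not taken as pairs. At the 90th percentile of the intron sets 67 of the 80 member values exceeded the background, at the 95th 54 and at the 99th 14. With 1 array left out, the exact test of a partner against a chain cannot go below p = 0.0571, so those p-values say nothing about stability.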
